A study of Homo sapiens with 6 samples.

Results

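Metallothioneins, the metal-responsive transcription factor MTF1 and zinc transporters were followed in the human glioma line U251. The members were chosen by name: 4 metallothionein genes (MT1E, MT1F, MT1X and MT2A), MTF1, the exporter SLC30A1 and the importers SLC39A6, SLC39A8, SLC39A10 and SLC39A14. All 10 were among the 21429 genes of the deposited table, and all 10 were among the 15327 genes with a mean level of at least 3 that were tested. All cells stably carried mutant amyloid precursor protein (K670N/M671L), and all received doxycycline (1 µg/mL) to induce it when the medium was renewed at 24 h. The cells were electroporated with a control siRNA (siNC, 3 libraries) or with an siRNA against RPL13 (siRPL13, 3 libraries), and RNA was taken at 72 h. The RPL13 product is a protein of the ribosome's large subunit. The sources used here do not say whether the line is a single clone, and the labels name no batch, date or zinc supplement.

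Metallothioneins are small cysteine-rich proteins that bind zinc, copper and cadmium and buffer the free zinc of the cell. MTF1 senses zinc through its zinc fingers and switches on metallothionein genes and SLC30A1 by binding short metal response elements in their promoters. SLC30 proteins move zinc out of the cytosol, and SLC39 proteins move it in, from outside the cell or from organelles. In astrocytes, metallothioneins are the main metal-buffering proteins, and they are also induced by stress and glucocorticoids.

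The coding sequences of the 4 metallothioneins are shown because their likeness bears on how reads can be assigned to each copy. They lie in 1 cluster on chromosome 16 and are given 5′ to 3′ from GENCODE 29 (GRCh38, plus strand), with capitals at the 29 of 186 positions at which the 4 genes do not all have the same base.
MT2A: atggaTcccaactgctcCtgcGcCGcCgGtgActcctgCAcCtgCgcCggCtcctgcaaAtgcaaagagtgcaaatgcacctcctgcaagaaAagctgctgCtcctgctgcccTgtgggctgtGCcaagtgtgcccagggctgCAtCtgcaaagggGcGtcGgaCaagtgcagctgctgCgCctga
MT1E: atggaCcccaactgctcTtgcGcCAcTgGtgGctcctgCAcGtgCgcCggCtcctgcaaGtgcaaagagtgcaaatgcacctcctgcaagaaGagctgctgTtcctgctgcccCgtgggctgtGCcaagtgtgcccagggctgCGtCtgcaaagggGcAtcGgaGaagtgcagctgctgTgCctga
MT1F: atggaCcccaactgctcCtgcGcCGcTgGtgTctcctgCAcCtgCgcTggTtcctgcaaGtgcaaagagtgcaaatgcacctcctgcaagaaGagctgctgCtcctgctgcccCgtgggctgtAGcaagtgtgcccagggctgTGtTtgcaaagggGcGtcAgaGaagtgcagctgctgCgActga
MT1X: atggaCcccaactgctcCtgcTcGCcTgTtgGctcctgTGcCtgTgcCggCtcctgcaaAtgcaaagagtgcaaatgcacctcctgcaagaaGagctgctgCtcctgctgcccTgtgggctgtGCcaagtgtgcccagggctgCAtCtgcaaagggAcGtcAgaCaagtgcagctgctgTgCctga

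Each of these 4 coding sequences holds 61 codons before the stop, of which 20 (32.8%) code for cysteine. Pairs were between 88.7% (MT1F and MT1X) and 92.5% identical (MT2A with MT1E and with MT1X). The longest identical stretch was 63 bases, between MT1X and MT2A. Over whole coding transcripts, UTRs included, sharing was counted in exact 50-base words, a measure that cannot be set against identity per base. Of the 50-base words of MT2A, 4.24% also occurred in transcripts of other genes, all of them metallothioneins or their pseudogenes. The share was 7.1% for MT1E and 3.27% for MT1F. For MT1X it was 8.28% with genes at other loci and 43.6% in all. The total adds words shared with AC026461.1, a noncoding transcript on the same strand whose exons overlap MT1X. The longest overlap between a single pair of exons was 222 bases, which is less than the whole shared sequence. No 100-base word of the 4 genes was shared with a gene at another locus. With the overlapping AC026461.1 counted, 30.8% of the 100-base words of MT1X were still shared. The read length and the handling of reads that match several genes are not given in the sources used here. The value of each metallothionein, MT1X above all, is therefore uncertain. Exact words leave out stretches that are nearly identical, so these shares do not give the size of that uncertainty. SLC39A6, SLC39A8, SLC39A10 and SLC30A1 shared 0.0% of their 50-base words, SLC39A14 0.126% and MTF1 0.896%.

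Upstream sequences of MT2A, MT1X and SLC30A1 are shown because these genes are textbook targets of MTF1. Each is the 250 bases before the RefSeq start (GRCh38.p14), 5′ to 3′ on the gene's strand. Capitals mark the 7-base core of the metal response element, searched as TGCACNC or TGCGCNC on both strands.
MT2A (chr16:56608334-56608583, plus strand): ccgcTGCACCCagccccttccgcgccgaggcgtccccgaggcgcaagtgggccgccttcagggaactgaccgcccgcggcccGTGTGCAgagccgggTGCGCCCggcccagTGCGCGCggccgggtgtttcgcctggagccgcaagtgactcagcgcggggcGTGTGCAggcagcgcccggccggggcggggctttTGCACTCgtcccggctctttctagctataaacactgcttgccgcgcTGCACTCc
MT1X (chr16:56682220-56682469, plus strand): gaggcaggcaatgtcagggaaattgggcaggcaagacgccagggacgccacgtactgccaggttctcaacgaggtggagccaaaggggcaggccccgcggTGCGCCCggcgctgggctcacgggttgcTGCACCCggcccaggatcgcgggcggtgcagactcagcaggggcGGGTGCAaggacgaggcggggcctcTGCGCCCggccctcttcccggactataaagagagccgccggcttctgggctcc
SLC30A1 (chr1:211579162-211579411, minus strand): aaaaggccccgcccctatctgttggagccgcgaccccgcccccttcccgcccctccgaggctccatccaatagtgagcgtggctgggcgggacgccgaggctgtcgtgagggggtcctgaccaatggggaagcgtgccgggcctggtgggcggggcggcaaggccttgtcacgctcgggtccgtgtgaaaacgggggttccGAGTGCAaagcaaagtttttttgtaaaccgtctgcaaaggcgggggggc

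In the full window of 300 bases, which runs 50 bases past the start, MT2A held 8 cores, a number reached by 0.0199% of 35116 promoter windows of that length. MT1X held 4 (0.601% of windows have as many) and SLC30A1 held 2 (8.6%). No matches overlapped each other in these 3 windows. Windows were found for 7 of the 10 members, not for MT1E, MT1F and SLC39A14. SLC39A6 held 1 core, MTF1 held 0, and SLC39A10 and SLC39A8 held 1 in 1 of their alternative windows, against 29.6% of all windows with at least 1. These matches are letters in a window and say nothing of binding in these cells.

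RPL13 was read first as a check of the labels. Its levels were 14.05, 14.16 and 14.18 in siNC replicates 1 to 3; siRPL13 replicates 1 and 2 had 13.03 and 13.12, and the library labelled siRPL13 replicate 3 had 14.09. All values are regularized-log (rlog) values, a log2 scale adjusted for library size on which 1 unit is a doubling; the depth per library is unknown. Because the target was not lowered in the library labelled siRPL13 replicate 3, the difference of each member is given with all 6 libraries and again without that library (the 5-library comparison, 3 siNC against 2 siRPL13), a choice made with the RPL13 values known. Why RPL13 was not lowered there was not tested: a knockdown that failed and a library with the wrong label cannot be told apart with these values, and both sets of values are to be read with that limit. Of the markers of the labelled cell type, 7 of 9 astrocyte or glioma genes had a mean of at least 10, and ALDH1L1 alone of them was below 3. The highest of 5 neuronal markers in any library was 8.78.

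MT2A was the most abundant member per transcript length in siNC, at 13.31 ± 0.15 (SD, n = 3) as rlog minus log2 kilobases. MT1E followed at 10.86 ± 0.11, SLC39A14 at 10.01 ± 0.05, MT1F at 9.38 ± 0.02 and MT1X at 8.79 ± 0.12. The other members were lower, from SLC39A6 at 8.19 ± 0.05 and SLC39A8 at 8.17 ± 0.13 through SLC30A1 at 7.90 ± 0.03 and SLC39A10 at 7.72 ± 0.06 to MTF1 at 7.26 ± 0.02. The ranges of the 3 siNC libraries were apart for all neighbours in this order except SLC39A6 and SLC39A8, which overlapped. The order rests on the longest coding transcript of each gene, and the transcript used by these cells was not measured.

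**Figure D1:**
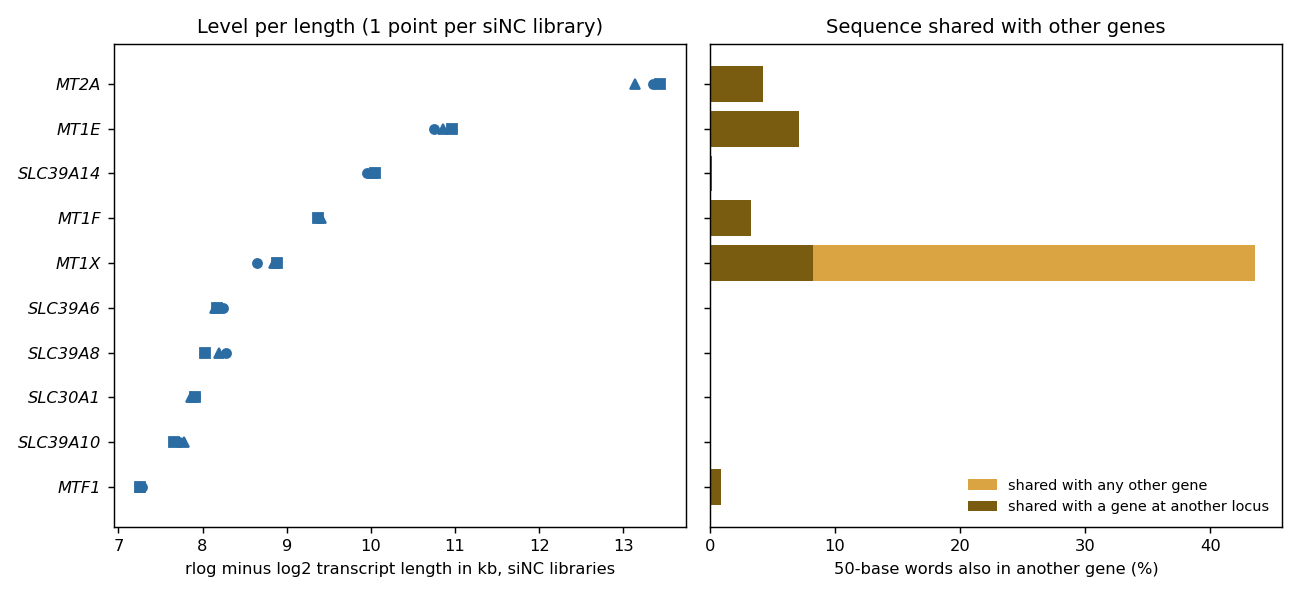
Left, the level of each member in the 3 siNC libraries as rlog minus log2 of the longest coding transcript in kilobases (log2 scale, 1 point per library, the shape giving the replicate). Right, the percentage of each member's 50-base words that occur in another gene, in total (light) and at another locus (dark): MT1X stands at 43.6% in total and 8.28% at other loci, and every other member at 7.1% or less.

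With all 6 libraries, 0 of the 10 members passed the limma test at an adjusted p under 0.05, as did 0.0% of all genes tested. At an unadjusted p under 0.05, 0 members were higher and 2 were lower (MT1F and SLC39A14), against 8.32% of all genes in either direction. In the 5-library comparison, MT2A, MT1E, MT1F and SLC39A14 fell and SLC39A10 rose, 5 of 10 members where 19.1% of all genes were called (8.42% higher, 10.7% lower). The other 5 members did not pass. The 5 called members were also those with an unadjusted p under 0.05, which 33.4% of all genes had. In that comparison the groups did not overlap for 8 members (51.3% of all genes): 3 with siRPL13 higher (24.7%) and 5 with siRPL13 lower (26.6%). The median difference of the 10 members was -0.046, against -0.0014 for all genes. "Fell" and "rose" below refer to this comparison, and all adjusted p-values are from limma over all genes tested. In RNA from whole cultures, fewer cells expressing a gene and less RNA per cell cannot be told apart.

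MT2A (ENSG00000125148, GRCh38 chromosome 16, 56608199 to 56609497), the major human metallothionein, stood at 13.00, 13.09 and 12.80 in siNC replicates 1 to 3. siRPL13 replicates 1 and 2 had 12.35 and 12.57, and the library labelled siRPL13 replicate 3 had 13.20. The library in which RPL13 was not lowered thus had the highest MT2A of all 6, and those in which it was lowered had the lowest. That order rests on 1 library, which was above the siNC range for 1 of the 4 metallothioneins, MT2A. Whether MT2A follows RPL13 was not tested. MT2A fell to 70.6% of siNC, and the log2 difference was -0.50 ± 0.09 (SE; adjusted p 0.00343). With all 6 libraries the difference was -0.26 ± 0.19 (adjusted p 0.670), and its 95% interval ran from -0.69 to 0.17. That 6-library difference was -0.082 without siRPL13 replicate 1 and -0.19 without siRPL13 replicate 2.

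MT1E (ENSG00000169715, chromosome 16, 56625475 to 56627112) was also lower in siRPL13 replicates 1 and 2 than in every siNC library. Its levels were 10.29, 10.51 and 10.41 in siNC; siRPL13 replicates 1 and 2 had 9.92 and 9.98, and the library labelled siRPL13 replicate 3 had 10.45, inside the siNC range. MT1E fell to 73.0% of siNC (-0.45 ± 0.07, adjusted p 0.00206). The difference over all 6 libraries was -0.29 ± 0.13 (adjusted p 0.589). The calls of MT2A and MT1E were lost when siRPL13 replicate 1 was left out as well (adjusted p 0.0852 and 0.0593), which leaves 1 siRPL13 library.

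MT1F (ENSG00000198417, chromosome 16, 56657694 to 56660698) was the 1 metallothionein whose groups did not overlap in all 6 libraries. It stood at 8.83, 8.84 and 8.87 in siNC and at 8.58, 8.68 and 8.73 in siRPL13 replicates 1 to 3, so that every siRPL13 library was lower than every siNC library, the one labelled replicate 3 included. Groups that did not overlap, with siRPL13 lower, were found for 6.9% of all genes. MT1F fell to 85.8% of siNC (-0.22 ± 0.07, adjusted p 0.0423), and with all 6 libraries the difference was -0.19 ± 0.07 (adjusted p 0.589). Its call in the 5-library comparison was lost without siNC replicate 2, siNC replicate 3, siRPL13 replicate 1 or siRPL13 replicate 2, with adjusted p-values up to 0.365.

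MT1X (ENSG00000187193, chromosome 16, 56682424 to 56684196) did not pass. It stood at 7.76, 7.99 and 7.95 in siNC; siRPL13 replicates 1 and 2 had 7.87 and 7.84, and the library labelled siRPL13 replicate 3 had 7.98, all inside the siNC range. The difference was -0.047 ± 0.09 (adjusted p 0.742) with a 95% interval from -0.23 to 0.14 in the 5-library comparison. Over all 6 libraries it was -0.0045 ± 0.09. Of the 4 metallothioneins tested, 3 thus fell and 0 rose in the 5-library comparison, where 10.7% of all genes fell, with a median difference of -0.34 against -0.0014 for all genes. Over all 6 libraries 0 of the 4 passed, and their median was -0.22 against -0.0008. Whether MT1X differed from the other metallothioneins in its response was not tested. Of the other 17 metallothionein genes and pseudogenes looked for, MT3, the brain metallothionein, and the pseudogene MT1XP1 were in the table, at 1.25 to 1.31 and 2.04 to 2.09, below the level required for a test. The remaining 15 had no row under these names and were not analysed here. They include MT1M, which shares 50-base words with MT1E and MT1F, and MT1G, which shares them with MT2A, MT1E, MT1F and MT1X.

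**Figure D2:**
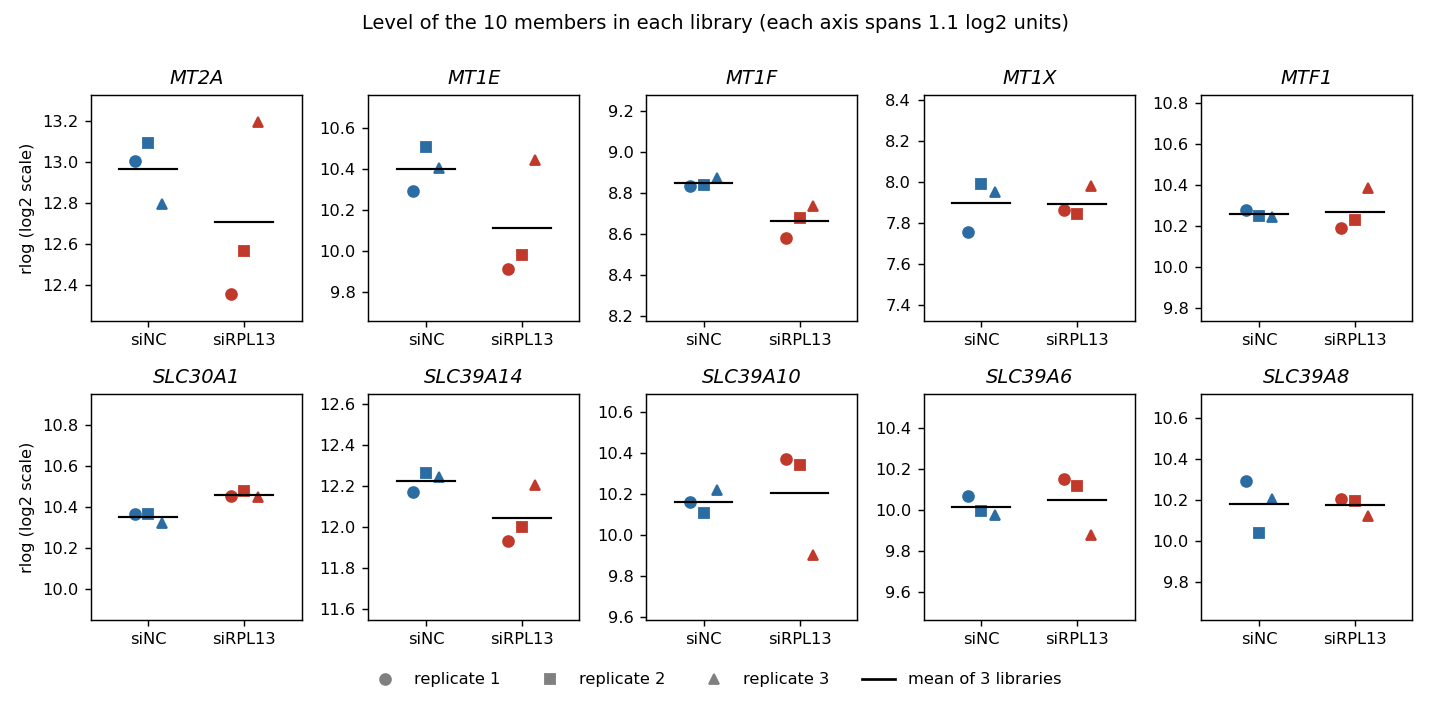
Level of the 10 members as rlog values (log2 scale; the axes do not start at 0 and each spans 1.1 units), 1 point per library with blue for siNC, red for siRPL13, a shape for each replicate and a bar at the mean of 3 libraries. In the panels of MT2A and MT1E the point of the library labelled siRPL13 replicate 3 is at 13.20 and 10.45, away from the other siRPL13 libraries, while the 3 siRPL13 libraries of SLC30A1 lie together between 10.45 and 10.48.

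MTF1 (ENSG00000188786, chromosome 1, 37809567 to 37859620, minus strand), the zinc sensor upstream of these genes, varied least of the members in siNC, at 10.28, 10.25 and 10.25. siRPL13 replicates 1 and 2 had 10.19 and 10.23, just below the siNC libraries, and the library labelled siRPL13 replicate 3 had 10.39, above them. The difference did not pass in the 5-library comparison (-0.046 ± 0.05, adjusted p 0.583, 95% interval -0.16 to 0.07) or with all 6 libraries (0.012 ± 0.07, adjusted p 0.964).

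SLC30A1 (ENSG00000170385, chromosome 1, 211571568 to 211578742, minus strand), the zinc exporter of the plasma membrane, was the 1 member whose siRPL13 libraries were all above all siNC libraries. It stood at 10.37, 10.37 and 10.32 in siNC and at 10.45, 10.48 and 10.45 in siRPL13 replicates 1 to 3. Such a separation, with siRPL13 higher, was found for 6.92% of all genes. The difference was 0.11 ± 0.05 (SE, adjusted p 0.594) with all 6 libraries and 0.12 ± 0.05 (adjusted p 0.154) in the 5-library comparison, and neither passed. The library in which RPL13 was not lowered thus lay with the other siRPL13 libraries here. The 95% interval of SLC30A1 in the 5-library comparison, -0.0014 to 0.23, lay above that of MT2A (-0.69 to -0.32) and of MT1E (-0.61 to -0.30); the difference between these genes was not tested.

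SLC39A14 (ENSG00000104635, chromosome 8, 22367249 to 22434129, plus strand), an importer of zinc, iron and manganese, had the highest rlog of the SLC39 members. It stood at 12.17, 12.27 and 12.24 in siNC; siRPL13 replicates 1 and 2 had 11.93 and 12.00, and the library labelled siRPL13 replicate 3 had 12.21, inside the siNC range. SLC39A14 fell to 83.5% of siNC (-0.26 ± 0.05, adjusted p 0.00705). The difference over all 6 libraries was -0.18 ± 0.08 (adjusted p 0.589). The call in the 5-library comparison was lost when siRPL13 replicate 1 (adjusted p 0.157) or siRPL13 replicate 2 (adjusted p 0.0506) was also left out.

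SLC39A10 (ENSG00000196950, chromosome 2, 195575977 to 195737702, plus strand), a zinc importer of the plasma membrane, went the other way. It stood at 10.16, 10.11 and 10.22 in siNC; siRPL13 replicates 1 and 2 had 10.37 and 10.34, and the library labelled siRPL13 replicate 3 had 9.90, the lowest of all 6. SLC39A10 rose to 114% of siNC (0.19 ± 0.06, adjusted p 0.0379). With all 6 libraries the difference was 0.041 ± 0.12 (adjusted p 0.920), and it turned negative without siRPL13 replicate 1 (-0.043) or siRPL13 replicate 2 (-0.026). In the 5-library comparison the call was lost without siNC replicate 2, siRPL13 replicate 1 or siRPL13 replicate 2 and with no filter on low values (adjusted p 0.0597).

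SLC39A6 (ENSG00000141424, chromosome 18, 36108532 to 36129385, minus strand), the closest relative of SLC39A10 and its partner in a zinc-transporting complex, stood at 10.07, 10.00 and 9.98 in siNC. siRPL13 replicates 1 and 2 had 10.15 and 10.12, and the library labelled siRPL13 replicate 3 had 9.88. The same libraries were the highest and the lowest as for SLC39A10, but the difference did not pass (0.12 ± 0.06, adjusted p 0.170, 95% interval -0.0065 to 0.25; with all 6 libraries 0.035 ± 0.08, adjusted p 0.900). SLC39A8 (ENSG00000138821, chromosome 4, 102251041 to 102431258, minus strand), an importer of zinc and manganese, stood at 10.29, 10.04 and 10.20 in siNC and at 10.21, 10.20 and 10.12 in siRPL13. All its siRPL13 libraries lay inside the siNC range. Its difference was 0.023 ± 0.07 (adjusted p 0.857) in the 5-library comparison and -0.0035 ± 0.08 with all 6 libraries. A long noncoding RNA gene on the same strand, AC098487.1 (mean rlog 4.64), overlaps an exon of SLC39A8 by up to 197 bases. This overlap was read over exons of all SLC39A8 transcripts, while the 0.0% of shared 50-base words above covers its coding transcripts only.

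**Figure D3:**
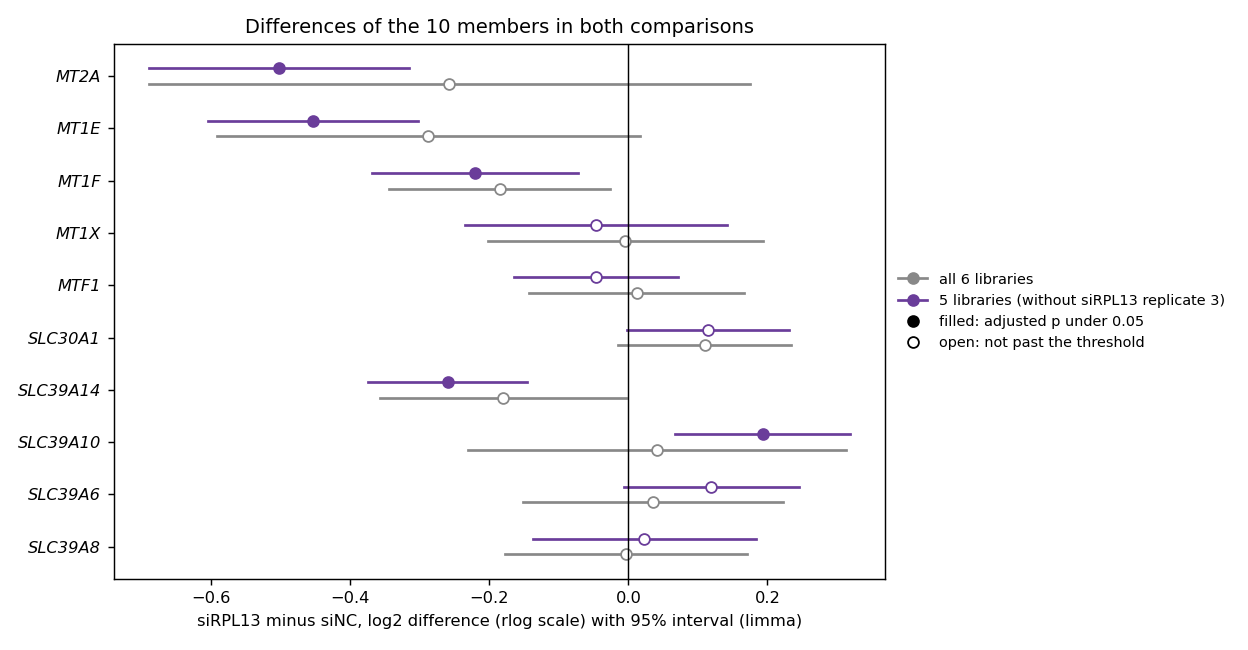
Difference between siRPL13 and siNC for each member on the log2 (rlog) scale, with 95% intervals from limma, for all 6 libraries (grey) and for the 5-library comparison (purple); filled points have an adjusted p under 0.05. MT2A moves from -0.26 to -0.50 and SLC39A10 from 0.041 to 0.19 when the library labelled siRPL13 replicate 3 is left out, while SLC30A1 stays at 0.11 and 0.12.

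Both transporter families were then read as whole lists, which include the members above. Of 11 zinc exporter genes listed (SLC30 family and TMEM163), 9 were in the table and 7 were tested. In the 5-library comparison 2 of these 7 rose (8.42% of all genes did) and 0 fell (10.7% of all genes did). The list median was 0.018 against -0.0014 for all genes, and over all 6 libraries it was below 0, at -0.0098 against -0.0008. SLC30A9, a mitochondrial zinc exporter, stood at 11.30, 11.11 and 11.22 in siNC; siRPL13 replicates 1 and 2 had 11.58 and 11.55, and the library labelled siRPL13 replicate 3 had 11.07. SLC30A9 rose to 128% of siNC (0.35 ± 0.06, adjusted p 0.00353), and over all 6 libraries its difference was 0.19 ± 0.13 (adjusted p 0.651). SLC30A6, which loads zinc into the secretory pathway, rose to 124% (0.32 ± 0.08, adjusted p 0.0169), from 10.30, 10.06 and 10.05 to 10.43 and 10.48; it stood at 9.99 in the library labelled siRPL13 replicate 3. Over all 6 libraries its difference was 0.16 ± 0.13 (adjusted p 0.690). For SLC30A9 and SLC30A6 the library labelled siRPL13 replicate 3 was thus the lowest of all 6. SLC30A3, a vesicular zinc transporter best known from neurons, had a difference of -0.30 ± 0.10 that did not pass (adjusted p 0.0672).

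Of 14 SLC39 genes, 10 were in the table and 9 were tested. In the 5-library comparison 1 of these 9 rose (SLC39A10; 8.42% of all genes rose) and 2 fell (SLC39A14 and SLC39A13; 10.7% of all genes fell). The list median was -0.016, and over all 6 libraries it was -0.0035. SLC39A13, an importer that releases zinc from Golgi and vesicles, stood at 10.51, 10.61 and 10.54 in siNC; siRPL13 replicates 1 and 2 had 10.32 and 10.36, and the library labelled siRPL13 replicate 3 had 10.60. It fell to 86.3% of siNC (-0.21 ± 0.06, adjusted p 0.0236), and over all 6 libraries its difference was -0.13 ± 0.08 (adjusted p 0.644). SLC39A11 had a difference of -0.12 ± 0.06 that did not pass (adjusted p 0.170). With all 6 libraries 0 members of either family passed. At an unadjusted p under 0.05, 0 SLC30 genes and 1 SLC39 gene (SLC39A14, lower) were counted, where 8.32% of all genes were in either direction.

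**Figure D4:**
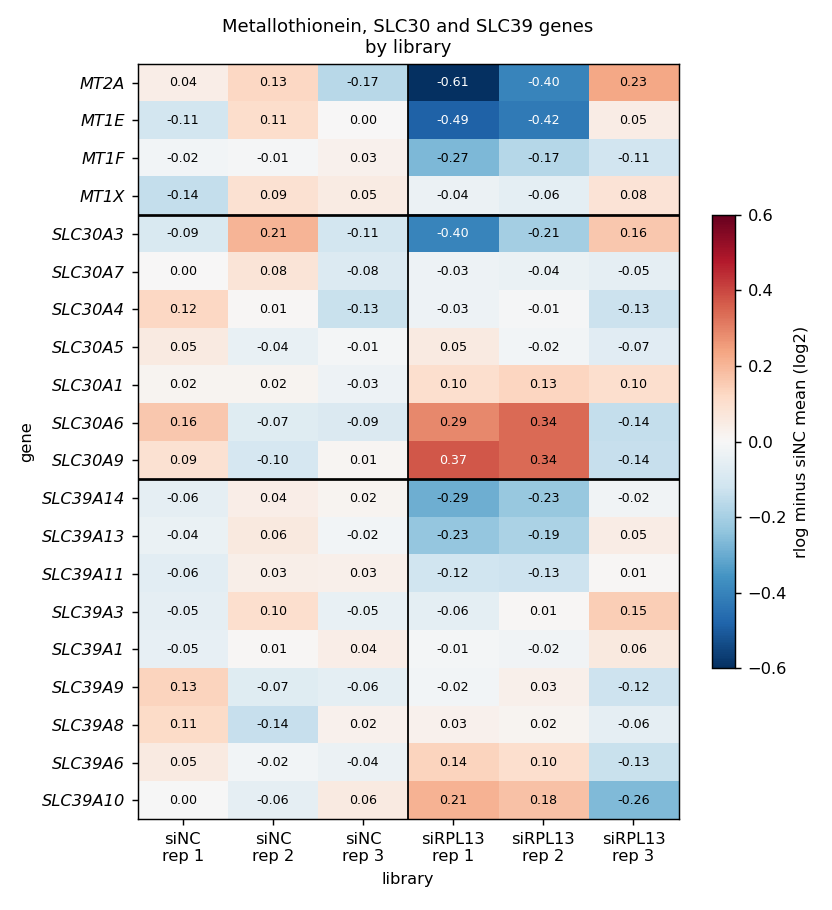
Level of each tested metallothionein, SLC30 and SLC39 gene in each library as rlog minus the mean of the 3 siNC libraries (log2; blue lower, red higher, the value printed in each cell). MT2A and MT1E are the bluest rows in siRPL13 replicates 1 and 2, SLC30A9 and SLC30A6 the reddest, and in the library labelled siRPL13 replicate 3 the sign is the opposite for all of these 4 genes.

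The mean profile of the 4 metallothioneins, taken relative to siNC, was -0.057, 0.079 and -0.022 in siNC; siRPL13 replicates 1 and 2 had -0.35 and -0.26, and the library labelled siRPL13 replicate 3 had 0.061. Among 12844 other genes whose rlog averaged at least 5, the 5 with the smallest root mean square difference from this profile over the 6 libraries were ABCA3, ABCB9, SEMA4F, RHBDD2 and ADAMTS14. Their differences from it were 0.0228 to 0.0248, where the median gene had 0.199. ABCA3, a lipid transporter, stood at 10.34, 10.49 and 10.44 in siNC; siRPL13 replicates 1 and 2 had 10.09 and 10.17, and the library labelled siRPL13 replicate 3 had 10.51. These genes were picked for this likeness, which is a description over 6 libraries. The profile averages genes that differ. In siRPL13 replicate 1 they ran from -0.61 (MT2A) to -0.036 (MT1X). In the library labelled siRPL13 replicate 3 they ran from -0.11 (MT1F) to 0.23 (MT2A). Likeness to the mean is thus not likeness to each metallothionein.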

How the data were processed

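The authors deposited 1 table for the 6 libraries with a regularized-log (rlog) value per Ensembl gene, on a log2 scale; its name gives the unit. Per the labels' protocols, 1.5 µg of total RNA per sample went into NEBNext Ultra libraries. Per the submitters' processing notes, the build was GRCh38.p7 and the tools were DESeq2, HTSeq 0.6.1p1, TopHat and Trimmomatic 0.33, without their roles or settings; the sources used here do not give strand handling or read length. The rlog scale pulls genes with few reads towards their mean, so their differences are understated, and no depth can be read from it; no count model was used.

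Symbols came from a table of current gene names (20499 of 21429 identifiers) and GENCODE 29 (20608), which also gave positions; 821 were in neither. Genes averaging an rlog of at least 3 were fitted with limma 3.58.1 in R 4.3.3 (eBayes with trend, two-sided, Benjamini-Hochberg over 15327 genes, threshold 0.05). The fit was run on simulated data with independent libraries and the same shift in every siRPL13 library. That setting does not cover an siRPL13 library that differs from the others. The p-values reflect only the spread among libraries that the labels call biological replicates; how the cultures were separated is not given. Members, lists and tests were chosen with earlier results of these data known. The genes named are RPL13, all members, the other metallothioneins in the table, other SLC30 and SLC39 genes that passed the 5-library comparison with the 2 largest that did not, up to 4 copper genes that passed, and the 5 genes most like the metallothionein profile. Shared 50- and 100-base words were counted over all GENCODE 29 transcripts on both strands, from each member's coding transcripts. No pair of libraries had an identical value in any gene tested (0 values). Alternatives were library weights, eBayes with a robust trend or with none, median centring, quantile scaling, a higher filter (mean rlog 5) or none, the replicate number as a block and leaving out each library. Figures were drawn with matplotlib 3.10.9.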

Additional observations from a re-analysis of the deposited data

How the results depend on the processing

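With all 6 libraries the number of members past the threshold was 0 under every alternative except library weights (6: 2 higher, 4 lower, with SLC30A1 added to the 5 genes called without the library labelled siRPL13 replicate 3) and leaving out libraries (0 to 5, the 5 without the library labelled siRPL13 replicate 3). Library weights gave that library 0.163 and siRPL13 replicate 2 7.19, and called 34.6% of all genes; limma's weight estimation stopped before its tolerance in 1 fit. In the 5-library comparison the number was 5, or 4 with no filter, and 0 to 5 when a further library was left out: 0 without siRPL13 replicate 1, where the share of all genes called fell from 19.1% to 1.59%, 2 (MT1E and MT2A) without siRPL13 replicate 2 (6.15% of all genes) and 3 without siNC replicate 2 (15.4%). MT2A, MT1E, MT1F, SLC39A14 and SLC39A10 kept their direction under every alternative run there. Differences that were not called changed sign under some alternatives. Over all 6 libraries, MT1X was 0.00084 with median centring and -0.076 to 0.041 in leave-one-out fits, MTF1 -0.024 with library weights and -0.046 to 0.050 in leave-one-out fits, and SLC39A8 0.0018 with median centring, 0.020 with library weights and -0.073 to 0.054 in leave-one-out fits. Leave-one-out fits gave -0.043 to 0.19 for SLC39A10 and -0.016 to 0.12 for SLC39A6, and -0.047 to 0.080 for SLC39A8 in the 5-library comparison. The cause was not tested. With the replicate number as a block, 0 members passed with all 6 libraries. Deviations from the group means had correlations across genes of 0.084, -0.43 and -0.33 between same-numbered libraries. The siRPL13 mean includes the library labelled replicate 3, which sets the deviations of that group. These correlations therefore cannot show whether the numbers pair the samples. Both comparisons were fitted without pairing. The limits of these values are the number of libraries, the unknown depth and the pull of rlog towards the mean, which bears most on genes with few reads.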

Other observations

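Copper handling genes were read because metallothioneins also bind copper. Of 13 genes listed, 12 were tested. In the 5-library comparison 3 of the 12 were called, where 19.1% of all genes were: 2 rose and 1 fell, with a list median of -0.081 against -0.0014 for all genes. Over all 6 libraries the median was -0.027, 0 passed, and 1 (COX17, lower) had an unadjusted p under 0.05, as did 8.32% of all genes. ATP7A, the copper-exporting ATPase, stood at 9.82, 9.76 and 9.61 in siNC; siRPL13 replicates 1 and 2 had 10.03 and 10.06, and the library labelled siRPL13 replicate 3 had 9.62. ATP7A rose by 0.31 ± 0.07 (SE, log2; limma adjusted p 0.0118), and its difference over all 6 libraries was 0.17 ± 0.12 (limma adjusted p 0.655). COX11, which helps to insert copper into cytochrome c oxidase, rose by 0.32 ± 0.07 (limma adjusted p 0.0103), against 0.16 ± 0.13 over all 6 libraries (limma adjusted p 0.705). It stood at 10.46 in the library labelled siRPL13 replicate 3, below every siNC library.

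COX17, the copper chaperone of the mitochondrial intermembrane space, stood at 10.23, 10.28 and 10.32 in siNC and at 10.11, 10.09 and 10.16 in siRPL13 replicates 1 to 3. All siRPL13 libraries were thus lower, as for 6.9% of all genes tested. Of the 12 copper genes tested, 2 had this separation, COX17 included. COX17 fell, with a log2 difference of -0.18 ± 0.06 (limma adjusted p 0.0461) in the 5-library comparison and -0.16 ± 0.06 (adjusted p 0.589) with all 6 libraries.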
